A study of Rattus norvegicus with 16 samples.

Results

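Glycolytic and fructose enzymes of the rat stomach and middle part of intestine were described by 9 genes: Hk1, Hk2, Aldoa, Tpi1, Gapdh, Pgk1, Eno1, Ldha and Khk. They were chosen by name, and every probe that the array design assigns to one of these symbols was taken, with no selection on its values. This gave 9 of 26115 gene names on the array and 15 of the 30367 probes that are not controls: 3 each for Gapdh and Eno1, 2 each for Tpi1 and Khk and 1 for each other gene. The 15 probes were well above background on all 16 arrays, so all were among the 21174 probes kept for testing.

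The arrays were hybridised with RNA of suckling Wistar rats (Wistar Han per the methods) that received saline solution (C) or obestatin at 250 nmol/kg of body weight (OH) by oral gavage. Gavage was given 2 times a day over 7 days, beginning on day 14, and tissue was taken on day 21. Obestatin is a gut peptide cut from the same precursor as ghrelin. Treatment was assigned to whole litters, 4 for each treatment, and all pups stayed with their mothers and were breast-fed. Stomach and middle intestine of each treatment made 4 groups of 4 arrays, each with Cy5-labelled RNA of one rat against a Cy3-labelled pool of RNA from all animals. Values are log2 ratios of Cy5 to Cy3, so 0 means the level of the pool and a difference of 1 means a 2-fold difference. A ratio says nothing on which of several genes is more abundant, and in whole tissue fewer cells of one type cannot be told apart from less RNA per cell.

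Glycolysis turns glucose into pyruvate in the cytosol, starting with its phosphorylation by a hexokinase, and lactate dehydrogenase can then reduce pyruvate to lactate. Fructose takes another entry: ketohexokinase (Khk) phosphorylates it to fructose 1-phosphate, so that the phosphofructokinase step is passed by. The small intestine is known as a site of fructose uptake and phosphorylation. Gapdh, the enzyme that oxidises glyceraldehyde 3-phosphate, is also widely used as a reference gene in PCR, and it was the reference in the PCR of Map2k3 and Mapk3 in this study.

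The probes have 60 bases. Those of Gapdh, Eno1 and Khk are shown because probes of the same symbol gave different values. The probes nearest the end of a message are given as a stretch of 30 bases. Capitals mark AATAAA, the letters of the polyadenylation signal. This hexamer is in 4 of the 15 probes (1 each of Eno1, Pgk1, Tpi1 and Khk) and, on the printed strand, in 8.39% of all 30367 probes. Its reverse complement, TTTATT, is in none of the 15 and in 2.86% of all.
Gapdh A_64_P232432, bases 1 to 60: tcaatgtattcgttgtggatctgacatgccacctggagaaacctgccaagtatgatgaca
Gapdh A_64_P052510, bases 1 to 60: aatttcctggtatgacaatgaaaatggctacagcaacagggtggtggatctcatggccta
Gapdh A_64_P003046, bases 1 to 30: gagaggccctcagttgctgaggaatcccca
Eno1 A_64_P067525, bases 1 to 60: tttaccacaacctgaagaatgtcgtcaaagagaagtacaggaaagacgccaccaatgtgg
Eno1 A_64_P093037, bases 1 to 30: aagtaaggcatggaccggagatccctggag
Eno1 A_64_P039081, bases 20 to 49: tttacttgcaaaAATAAAagctgcagaagc
Khk A_64_P122005, bases 30 to 59: cacctggagcaAATAAAtcttcccctgagc
Khk A_64_P089787, bases 1 to 60: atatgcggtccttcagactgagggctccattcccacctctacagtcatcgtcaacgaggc

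By the annotation of the array on the rn4 build, the Gapdh probes lie on the minus strand of chromosome 4. A_64_P232432 covers chr4:161282760-161282907 and A_64_P052510 covers chr4:161282433-161282601. Both spread 60 bases over a longer stretch of the genome (148 and 169 bases), so their letters are not contiguous in the genome. A_64_P003046 lies downstream of both, at chr4:161282310-161282369. Of the Eno1 probes, A_64_P093037 (chr5:167405206-167405265) and A_64_P039081 (chr5:167405465-167405524) lie on the plus strand of chromosome 5, while A_64_P067525 is placed on the minus strand of chromosome 10 (chr10:53300221-53300280). The Khk probes lie on the minus strand of chromosome 6, A_64_P089787 (chr6:25433071-25433130) upstream of A_64_P122005 (chr6:25428265-25428324), with 4746 bases between them. Accessions of 12 of the 15 probes were found in the RefSeq gene table (GRCr8), all under the same symbol.

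The tissue labels were borne out by markers. The mean log2 ratio of 10 stomach mucosa genes was 2.30 to 3.59 on the stomach arrays and -4.29 to -3.69 on the intestinal arrays, and that of 13 enterocyte genes was -3.67 to -3.23 and -0.33 to 1.76. Within groups, 13 striated muscle genes had a mean of 2.89 to 3.49 on C stomach replicates 1, 3 and 4 but -1.01 on replicate 2, and -0.45 to 0.91 in OH stomach. Each group was on a slide of its own, and the OH slides were scanned on another day than the C slides, so slide or scan and treatment cannot be told apart, nor can slide and tissue. The Cy3 channel holds the same pool on every array, yet its median raw signal was 188 to 195 on the C slides and 341 to 399 on the OH slides.

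Between the tissues of C rats, the largest differences were in Khk, which was 10.6-fold lower in stomach than in middle intestine, and in Hk1, which was 4.23-fold higher in stomach. Aldoa, Eno1 and the 2 upstream probes of Gapdh were also higher in stomach, and Tpi1 and Ldha were lower. By limma with Benjamini-Hochberg adjustment over all 21174 probes, 11 of the 15 member probes passed an adjusted p of 0.05, 7 higher and 4 lower in stomach, against 44.9% of all probes tested. The median difference was 0.47 over the member probes and -0.01 over all probes. In OH rats 7 of the 15 passed, 3 higher and 4 lower, against 38.2% of all probes, with a median of 0.20 over the members and 0.01 over all. The member counts are thus read against tissues in which a large share of all probes differed. The methods name 4 rats a treatment for both tissues, and whether same-numbered arrays share a rat is not stated, so the arrays were treated as independent.

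**Figure D1:**
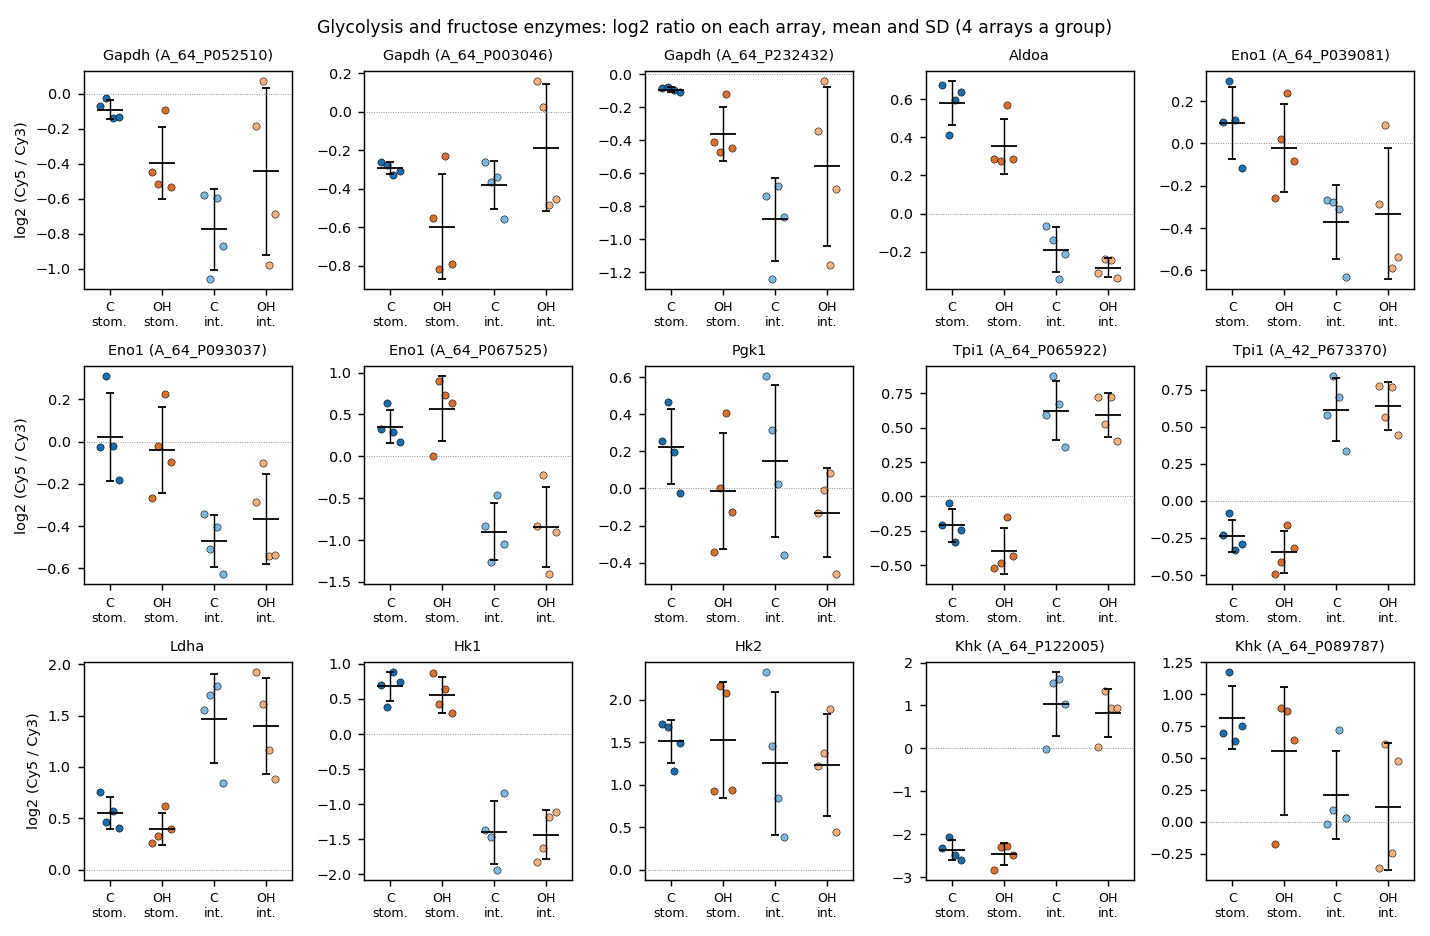
Log2 ratio of Cy5 to Cy3 (vertical axes, scaled for each panel) of each member probe on each of the 16 arrays, with the mean and SD of each group of 4 arrays (stom., stomach. int., middle intestine). Khk A_64_P122005 and Hk1 separate the tissues without overlap, whereas the order of the group means of Gapdh A_64_P003046 differs from that of the 2 other Gapdh probes, which share theirs.

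Hk1, the hexokinase of most tissues, catalyses the first step. Its log2 ratio was 0.71, 0.39, 0.89 and 0.74 in C stomach and -1.36, -1.46, -1.93 and -0.85 in C middle intestine. It was 0.87, 0.42, 0.64 and 0.30 in OH stomach and -1.83, -1.62, -1.18 and -1.11 in OH middle intestine. All 8 stomach arrays were above all 8 intestinal arrays. Stomach minus middle intestine was 2.08 ± 0.22 (standard error, adjusted p = 3.52e-06) in C and 1.99 ± 0.22 (adjusted p = 6.18e-06) in OH. Hk2, the hexokinase of insulin-responsive muscle and fat, was dim in both tissues, with Cy5 signals of 66.6 to 355 units, and its arrays scattered widely: 1.16 to 1.71 in C stomach, 0.93 to 2.16 in OH stomach, 0.39 to 2.33 in C middle intestine and 0.44 to 1.89 in OH middle intestine. Its tissue difference did not pass in C (0.26, 95% confidence interval -0.62 to 1.14) or in OH (0.30, -0.59 to 1.18).

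Aldoa, the aldolase of muscle and of most other tissues, cleaves fructose 1,6-bisphosphate. It was 0.67, 0.41, 0.60 and 0.64 in C stomach against -0.06, -0.14, -0.34 and -0.21 in C middle intestine, and 0.28, 0.27, 0.57 and 0.28 in OH stomach against -0.31, -0.24, -0.24 and -0.34 in OH middle intestine. The tissues did not overlap in either treatment. The difference was 0.77 ± 0.10 (adjusted p = 2.51e-05) in C and 0.64 ± 0.10 (adjusted p = 0.000161) in OH. The lowest C stomach array, replicate 2 (0.41), was also the one low in striated muscle genes, and the part of muscle in this was not tested.

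Tpi1 interconverts the 2 triose phosphates made by aldolase. Its brighter probe (A_64_P065922) was -0.21, -0.05, -0.33 and -0.25 in C stomach and 0.59, 0.87, 0.67 and 0.36 in C middle intestine, a difference of -0.83 ± 0.13 (adjusted p = 0.000117). In OH it was -0.52, -0.48, -0.15 and -0.43 in stomach and 0.72, 0.52, 0.72 and 0.40 in middle intestine, a difference of -0.99 ± 0.13 (adjusted p = 2.69e-05). The other Tpi1 probe gave -0.85 and -0.99, and on each of the 16 arrays the pair differed by 0.12 or less. Ldha, the lactate dehydrogenase subunit that predominates in muscle, was 0.76, 0.46, 0.57 and 0.40 in C stomach and 1.55, 1.70, 1.79 and 0.84 in C middle intestine. In OH it was 0.26, 0.33, 0.62 and 0.39 in stomach and 1.93, 1.61, 1.17 and 0.88 in middle intestine. It was lower in stomach by 1.90-fold in C (-0.92 ± 0.23, adjusted p = 0.00435) and by 2.00-fold in OH (adjusted p = 0.00293), with no overlap of the tissues. The Ldha probe shares a run of 44 bases with a probe of RGD1562690, which was -0.90 in C and -0.99 in OH for the same differences, so their signals may not be separate.

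Pgk1, which makes the first ATP of the pathway, did not differ detectably between tissues. It was -0.02 to 0.47 in C stomach, -0.34 to 0.41 in OH stomach, -0.36 to 0.61 in C middle intestine and -0.46 to 0.08 in OH middle intestine. The 95% confidence interval of the tissue difference was -0.36 to 0.52 in C and -0.33 to 0.56 in OH.

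Khk was represented by a bright and a dim probe that did not behave alike. The bright one (A_64_P122005) was -2.31, -2.07, -2.49 and -2.60 in C stomach and -0.02, 1.52, 1.61 and 1.04 in C middle intestine. In OH it was -2.83, -2.30, -2.28 and -2.48 in stomach and 0.02, 1.34, 0.94 and 0.95 in middle intestine. Replicate 1 was the lowest intestinal array in both treatments, but every intestinal array was above every stomach array by over 2 log2 units. The difference was -3.41 ± 0.33 (adjusted p = 1.23e-06) in C and -3.28 ± 0.33 (adjusted p = 1.98e-06) in OH, the largest among the member probes in each. The dim probe (A_64_P089787), with Cy5 signals of 45.2 to 115 units, lay the other way, at 0.70, 1.18, 0.63 and 0.75 in C stomach and -0.02, 0.10, 0.72 and 0.03 in C middle intestine. Its difference of 0.61 in C (adjusted p = 0.0851) and 0.44 in OH (adjusted p = 0.227) did not pass. It was called in C with only the groups compared and without OH stomach replicate 1 or C middle intestine replicate 3, and in OH without OH stomach replicate 1. Khk is known to be spliced in alternative forms, but the annotation does not say which form either probe reads.

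**Figure D2:**
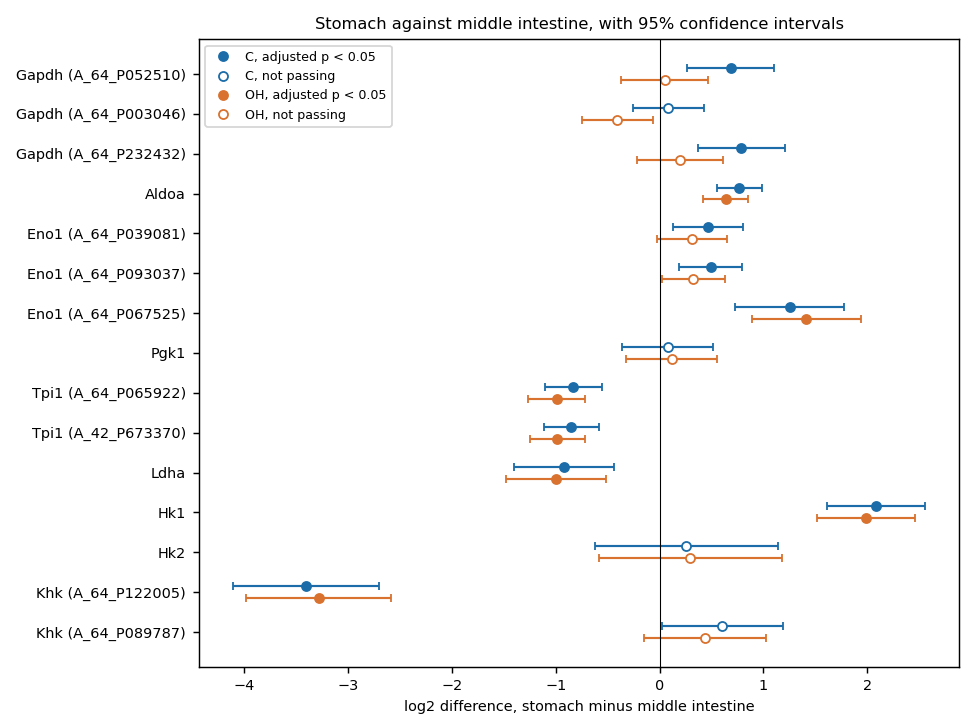
Log2 difference of stomach minus middle intestine (horizontal axis) of each member probe in C and in OH rats, with 95% confidence intervals from limma (4 arrays a group). Filled points pass an adjusted p of 0.05. Khk A_64_P122005 lies near -3 and Hk1 near 2 in both treatments, while the Gapdh probes pass only in C and only upstream.

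Gapdh had no single tissue pattern. Of the upstream probes, A_64_P052510, the brightest, was -0.07, -0.02, -0.14 and -0.13 in C stomach, -0.45, -0.51, -0.09 and -0.53 in OH stomach, -0.58, -1.06, -0.60 and -0.87 in C middle intestine and -0.18, 0.07, -0.98 and -0.69 in OH middle intestine. Its group means fell in the order C stomach (-0.09), OH stomach (-0.40), OH middle intestine (-0.44) and C middle intestine (-0.77), and no step between neighbours passed the test. The ends differed by 0.68 ± 0.20 (adjusted p = 0.011, limma), with no overlap. They were not called by analysis of variance with Tukey's test, where a call needed both to pass. The larger of the adjusted p of the analysis of variance and Tukey's p was 0.0715. The other upstream probe, A_64_P232432, gave 0.79 ± 0.20 (adjusted p = 0.00468). The downstream probe, A_64_P003046, was -0.33 to -0.26 in C stomach and -0.56 to -0.26 in C middle intestine, a difference of 0.09 (95% confidence interval -0.26 to 0.43, adjusted p = 0.685). In OH the 3 differences were 0.05, 0.20 and -0.41, and none passed (adjusted p = 0.872, 0.459 and 0.0557). The downstream probe was called lower in OH stomach under 7 alternatives: normexp with loess, quantile normalisation, median centring, Cy5 alone, and without OH stomach replicate 3 or OH middle intestine replicate 3 or 4.

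The reference channel of the Gapdh probes also differed between the slides of the 2 tissues, and its part in the tissue difference was not tested. Without scaling between arrays, Cy5 of the upstream probes was higher in C stomach by 0.22 and 0.35, while Cy3, which holds the same pool, was lower by 0.46 and 0.43 (adjusted p = 0.0124 and 0.0162). With Cy5 alone after quantile normalisation the 2 differences were 0.31 (adjusted p = 0.206) and 0.44 (adjusted p = 0.0645) and no longer passed. For Hk1 the Cy5 difference was 1.81 and the Cy3 difference -0.27, and for Khk A_64_P122005 they were -3.52 and -0.11. With Cy5 alone the other 9 member probes called in C stayed past the threshold.

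Eno1, the enolase of most tissues, showed a like split. A_64_P067525 was 0.33, 0.63, 0.29 and 0.17 in C stomach and -0.83, -1.26, -0.46 and -1.05 in C middle intestine, and 0.01, 0.90, 0.73 and 0.64 in OH stomach and -0.84, -0.23, -1.41 and -0.90 in OH middle intestine. The tissue difference was 1.25 ± 0.25 (adjusted p = 0.000877) in C and 1.41 ± 0.25 (adjusted p = 0.000385) in OH. The chromosome 5 probes differed less, by 0.47 (adjusted p = 0.0263) and 0.49 (adjusted p = 0.011) in C and by 0.31 (adjusted p = 0.139) and 0.33 (adjusted p = 0.0829) in OH. In OH A_64_P093037 was called with normexp and loess, with Cy5 alone and without OH stomach replicate 1 or OH middle intestine replicate 2, and A_64_P039081 without the latter. The call of A_64_P039081 in C was lost with quantile normalisation between arrays (adjusted p = 0.054) and with analysis of variance followed by Tukey's test. It was also lost without C stomach replicate 1, 2 or 3 or C middle intestine replicate 4 (adjusted p = 0.0528 to 0.0789).

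The distance between probes given the same symbol by the design was then taken on each array, a comparison chosen after the values were seen. Eno1 A_64_P067525 is placed on chromosome 10, apart from the chromosome 5 probes, and was dimmer. Its mean log2 Cy5 in C stomach was 10.5, against 13.8 and 15.7 for those. The mean of the 2 upstream Gapdh probes minus the downstream one was 0.18 to 0.23 in C stomach, 0.12 to 0.32 in OH stomach, -0.78 to -0.30 in C middle intestine and -0.58 to -0.01 in OH middle intestine. For Eno1, A_64_P067525 minus the mean of the chromosome 5 probes was 0.24 to 0.33, 0.27 to 0.90, -0.87 to -0.11 and -0.84 to -0.22 in the same groups. Over the 8 intestinal arrays the 2 distances moved together, with Pearson's r = 0.87 (exact permutation p = 0.00516, adjusted over the 2 tissues 0.0103) and Spearman's rho = 0.93 (exact permutation p = 0.00223, adjusted 0.00446, n = 8). Without the 2 arrays farthest from the median r was 0.87. In stomach r was 0.74 (exact permutation p = 0.0402, n = 8) and rho 0.60 (exact permutation p = 0.132, n = 8), but without the 2 farthest arrays r was -0.47, so the relation there rested on those 2. Groups and slides coincide and hold 4 arrays each, too few for a value within a slide. After subtraction of the group means r was 0.92 in middle intestine and 0.90 in stomach, as a description.

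**Figure D3:**
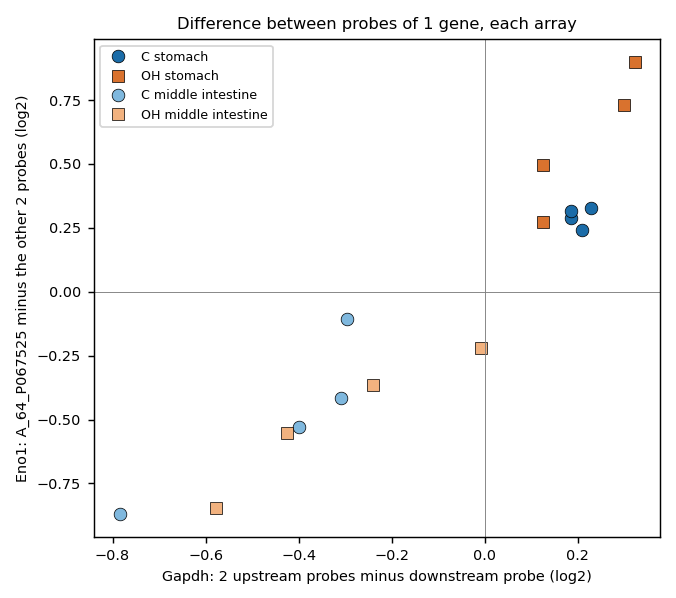
Difference between probes of Gapdh (horizontal axis, log2, 2 upstream probes minus the downstream one) and of Eno1 (vertical axis, log2, A_64_P067525 minus the mean of the other 2 probes), 1 point for each of the 16 arrays, by group. Both differences are above 0 on all 8 stomach arrays and below 0 on all 8 intestinal arrays, and within middle intestine they rise together.

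Gapdh also has many near copies in the rat genome, which makes its probes uncertain. The array carries 86 probes described as like glyceraldehyde-3-phosphate dehydrogenase, of which 81 were kept. Runs of 25 or more bases were shared with 4 probes of other symbols by A_64_P232432 (longest 40) and with 6 by A_64_P052510 (longest 32), and with none by A_64_P003046. Between the tissues of C rats 62 of the 81 were called higher in stomach and 1 lower, against 44.9% of all probes called. Their median difference was 0.65, close to the upstream probes of Gapdh. In OH rats 2 were called higher and 6 lower, against 38.2% of all probes, with a median of 0.16. Further downstream at the Gapdh locus (chr4:161282209-161282266), 2 probes named RGD1565368, which were singled out after their values were seen, had differences of -0.26 and -0.24 in C (adjusted p = 0.163 and 0.164) and of -0.52 and -0.57 in OH (adjusted p = 0.0107 and 0.00368).

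Obestatin, the main question of the study, gave no call for any member. In stomach 13 of the 15 probes were lower in OH and 2 were higher, with differences from -0.30 to 0.22, and in middle intestine 8 were lower and 7 higher, from -0.28 to 0.33. By limma none of the 15 passed in stomach, against 0% of all probes tested, and none in middle intestine, against 0.368%. At an unadjusted p under 0.05 there was 1 in stomach (Aldoa), where 10.6% of all probes had one, and 0 in middle intestine, where 10.5% did. By Tukey's test after an analysis of variance there were 0 in each tissue. Of all 21174 probes, that test called 339 higher and 370 lower in stomach, and 616 higher and 320 lower in middle intestine. The median difference was -0.15 over the members and 0.01 over all probes in stomach, and -0.02 and 0.00 in middle intestine. For the mean of both tissues none passed by limma, against 0.685% of all probes (1, Aldoa, unadjusted, against 14.5%).

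The intervals give the sizes of difference between the OH and C arrays that the spread between rats allows. They do not cover a shift between slides, which coincides with treatment. For Aldoa the 95% confidence interval of OH minus C in stomach was -0.44 to -0.01, and in middle intestine -0.31 to 0.12. For Tpi1 A_64_P065922 it was -0.46 to 0.09 and -0.31 to 0.24, for Ldha -0.63 to 0.33 and -0.56 to 0.41, and for Hk1 -0.60 to 0.35 and -0.50 to 0.44. Hk2 and Khk were measured less closely, with intervals of -0.87 to 0.90 and -0.91 to 0.86 for Hk2 and of -0.80 to 0.60 and -0.93 to 0.47 for Khk A_64_P122005. A change as large as that of Hk1 between the tissues lay outside every one of these intervals.

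**Figure D4:**
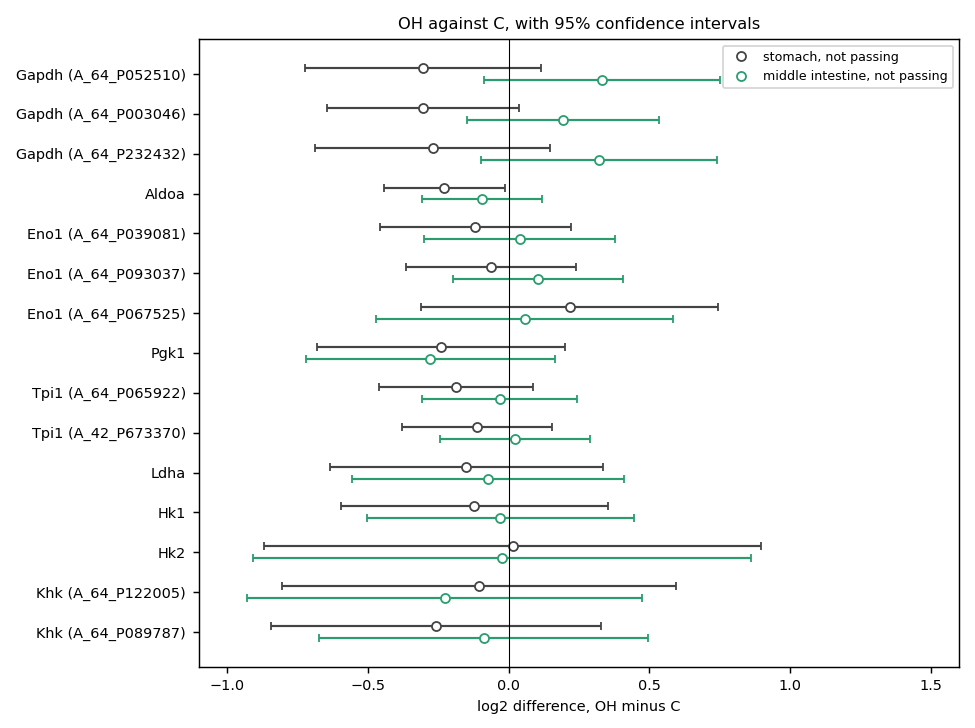
Log2 difference of OH minus C (horizontal axis) of each member probe in stomach and middle intestine, with 95% confidence intervals from limma (4 arrays a group). No probe passes, and the Gapdh probes lie below 0 in stomach and above 0 in middle intestine.

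All 3 Gapdh probes had values under obestatin that lay below 0 in stomach and above 0 in middle intestine. For A_64_P052510 OH minus C was -0.30 ± 0.20 in stomach (adjusted p = 0.608) and 0.33 ± 0.20 in middle intestine (adjusted p = 0.619). For A_64_P003046 it was -0.30 and 0.19, and for A_64_P232432 it was -0.27 and 0.32. In stomach OH replicates 1, 2 and 4 lay below all C arrays and replicate 3 among them for A_64_P052510, whereas for A_64_P232432 the groups did not overlap, as for 7.60% of all probes. In middle intestine OH replicates 1 and 2 were above the C arrays and replicates 3 and 4 within their range. The exact permutation test of A_64_P052510 gave p = 0.0857 in stomach and p = 0.314 in middle intestine (n = 4 each), where the smallest possible p is 0.0286. The difference of the response between tissues was -0.64, -0.49 and -0.59 for the 3 probes (unadjusted p = 0.037, 0.0449 and 0.0498), and after adjustment over all probes it was not called (adjusted p = 0.836 for each). These 3 probes of 1 gene were the only member probes with an unadjusted p under 0.05 for that difference, as 5.85% of all probes had, and by limma 0 of the 15 passed, against 0% of all probes.

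Signals of the reference channel, of enterocyte genes and of smooth muscle genes also varied over these arrays, in part of the groups alongside Gapdh. Their part in the Gapdh values was not tested. Unscaled Cy5 of A_64_P052510 was 0.08 higher in OH stomach than in C stomach, while its Cy3 was 0.38 higher (adjusted p = 0.00629). In middle intestine Cy5 was 0.16 higher and Cy3 0.17 lower (-0.17, adjusted p = 0.247). Over all members in stomach, unscaled Cy3 was higher in OH for 15 of 15 probes, by 0.06 to 0.45, and Cy5 was higher for 14. This was not particular to the members. The median raw Cy3 signal of the whole array was 341 to 376 in OH stomach and 189 to 191 in C stomach. With Cy5 alone after quantile normalisation, OH minus C of Gapdh was -0.15 in stomach and 0.13 in middle intestine. Within OH middle intestine, the mean of the 13 enterocyte genes was 0.95, 1.76, -0.33 and 0.21 in replicates 1 to 4, the same order of arrays as Gapdh A_64_P052510 and A_64_P232432. For Gapdh A_64_P003046 replicate 1 (0.16) was above replicate 2 (0.03). In C middle intestine the enterocyte mean was 0.11, 0.35, 0.75 and -0.01, another order than that of Gapdh. In stomach the mean of 7 smooth muscle genes was -2.69 to -1.45 in C and 0.95, -1.33, -2.64 and 0.16 in OH replicates 1 to 4. Replicate 3, the lowest of these, was the highest OH stomach array for Gapdh, Aldoa, Pgk1, Tpi1, Ldha, Eno1 A_64_P039081 and A_64_P093037, and Khk A_64_P122005. For Hk1 the highest was replicate 1, and for Hk2, Eno1 A_64_P067525 and Khk A_64_P089787 it was replicate 2.

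Since Gapdh served as the PCR reference for Map2k3 and Mapk3, the kinases that the study picked from these arrays, their log2 ratios were also taken relative to Gapdh A_64_P052510. Both kinases belong to the mitogen-activated protein kinase cascades. As they were chosen on these samples, their directions and exact permutation p-values are not independent evidence. By limma 0 of 21174 probes were called for OH against C in stomach, so neither kinase was called there. On the log2 ratio itself, OH and C did not overlap for 7.60% of all probes in stomach and 5.86% in middle intestine. By PCR relative to Gapdh, the paper reports lower Mapk3 in OH stomach and no significant change of either gene in intestine. With both tissues pooled, it reports lower Map2k3. The 4 comparisons below share the arrays of each tissue.

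In stomach Map2k3 itself was -0.39, -0.12, -0.26 and -0.45 in OH and 0.45, 0.03, 0.50 and 0.45 in C, a difference of -0.66 with no overlap (exact permutation p = 0.0286, n = 4 each). Relative to Gapdh it was 0.05, 0.40, -0.17 and 0.08 in OH and 0.52, 0.05, 0.64 and 0.59 in C, a difference of -0.36 with overlap (exact permutation p = 0.114, n = 4 each). Gapdh as reference thus took off close to the lower level of Gapdh in OH stomach. Mapk3 moved the other way, which is also opposite to the PCR of the paper in stomach. Its difference was 0.28 (exact permutation p = 0.0286, n = 4 each) on its own and 0.59 (exact permutation p = 0.0286, n = 4 each) relative to Gapdh, and the groups did not overlap on either scale. With Cy5 alone the difference relative to Gapdh was 0.32 (exact permutation p = 0.114, n = 4 each).

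In middle intestine Map2k3 was 0.19, 0.10, 0.42 and 0.21 in OH and 0.83, 1.19, 0.70 and 0.60 in C, a difference of -0.60 with no overlap (exact permutation p = 0.0286, n = 4 each). Relative to Gapdh the difference was larger, -0.93, but the SD in OH rose from 0.13 to 0.60 and the groups overlapped (exact permutation p = 0.0571, n = 4 each). With Cy5 alone it was -0.22 (exact permutation p = 0.543, n = 4 each). Mapk3 was 0.65, 0.63, 0.48 and 0.53 in OH and 0.23, 0.50, 0.03 and 0.27 in C, a difference of 0.31 (exact permutation p = 0.0571, n = 4 each). Relative to Gapdh this difference was -0.02 (exact permutation p = 0.971, n = 4 each). Against the mean of the other 8 members it was 0.40, and against the mean of 11 other common PCR reference genes it was 0.24 (exact permutation p = 0.0571 and 0.143, n = 4 each).

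**Figure D5:**
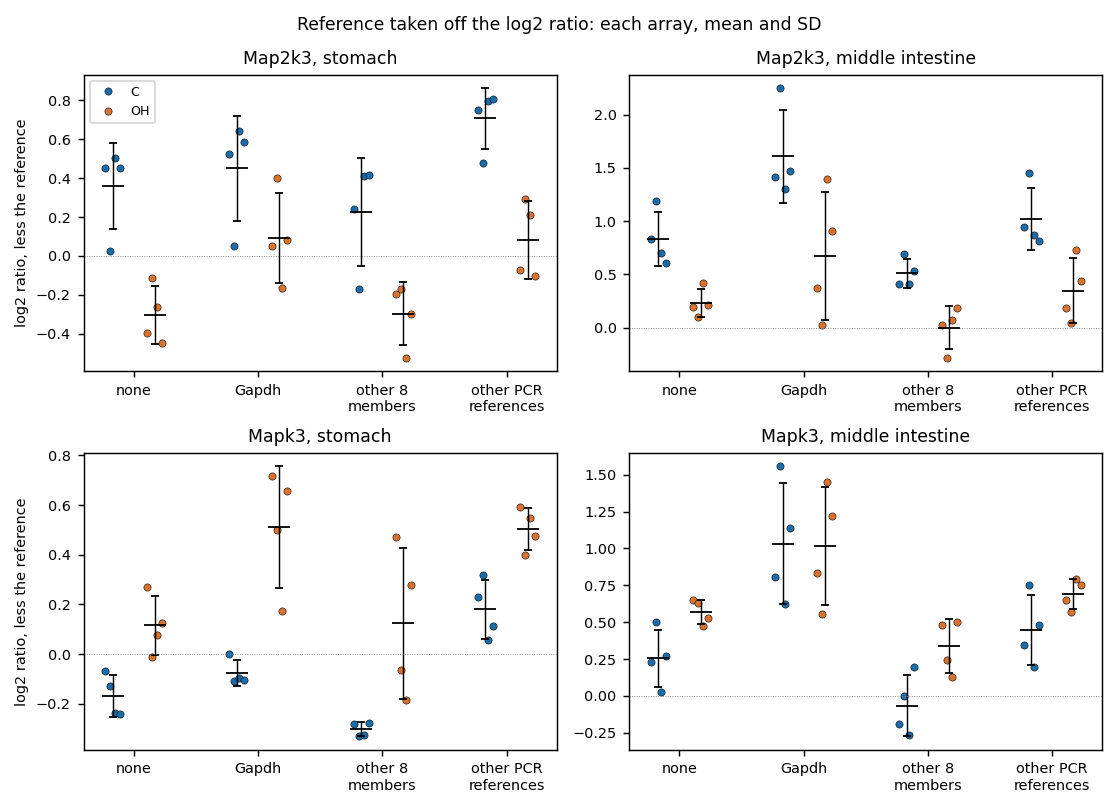
Map2k3 and Mapk3 in C and OH arrays of each tissue (vertical axes, log2 ratio less the reference, scaled for each panel), with no reference, with Gapdh A_64_P052510, with the mean of the other 8 members and with the mean of 11 other PCR reference genes, with mean and SD. Mapk3 in middle intestine differs by 0.31 with no reference and by -0.02 relative to Gapdh, and the spread of Map2k3 in middle intestine is widest relative to Gapdh.

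Set beside those reference genes, Gapdh was intermediate. Its SD over the 16 arrays was 0.36, with a range of 1.13, against a median SD of 0.39 over all probes, and 43.6% of the probes had a lower one. Ppia, Sdha, Rpl13a and Hprt1 had SDs of 0.12, 0.14, 0.16 and 0.17. Among the members Eno1 A_64_P039081 (0.29) and Pgk1 (0.31) had lower SDs than Gapdh, and Khk A_64_P122005 (1.79) the highest. Between the tissues of C rats 4 of the 11 other reference genes passed, against 44.9% of all probes. Among them were B2m (-1.36), Tbp (-0.91) and Gusb (-0.82), which were lower in stomach. None of the 11 passed for OH against C in either tissue by limma (unadjusted 0 in stomach and 1, Hprt1, in middle intestine).

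Of the other genes of glycolysis, 20 were tested, by their brightest probe. In C rats 7 were higher and 3 lower in stomach, a share near the 44.9% of all probes called, with a median difference of 0.28. The 3 lower include Hk3, whose call rests on stomach values not above background and is not taken as a result. The 4 largest were Pklr, the pyruvate kinase of liver, red cells and gut (-4.92 ± 0.19, adjusted p = 6.61e-11), Pgam2, the phosphoglycerate mutase of muscle (3.05 ± 0.69, adjusted p = 0.0024), Hk3 and Ldhb, the lactate dehydrogenase subunit of heart (2.64 ± 0.22, adjusted p = 3.42e-07). Hk3 was well above background on none of the stomach arrays and on 3 of the 4 C middle intestine arrays. It was kept through OH middle intestine, where it was well above background on 4 arrays. It was at least 2.32-fold lower in C stomach, a bound without a p-value, since the test used stomach values not above background. Pgam2 was 4.65, 0.60, 4.40 and 4.56 in C stomach, while its mean was 0.66 in OH stomach and, in middle intestine, 0.51 in C and -0.06 in OH. It was high on the same 3 arrays as the striated muscle genes, and the part of muscle in this was not tested. Ldha and Ldhb thus lay in opposite directions, Ldha lower and Ldhb higher in stomach, with Ldhb at 2.68 ± 0.22 in OH. None of the 20 passed for OH against C by limma (unadjusted 2 in stomach, Pgam2 and Eno3, the latter named after its value was seen, and 0 in middle intestine).

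Most genes of the fructose and polyol list lay in the direction of Khk A_64_P122005. Of 6 genes tested in C rats, 4 were lower and 1 higher in stomach, against 44.9% of all probes called, with a median of -1.56. The counts were the same in OH, against 38.2% of all probes, with a median of -1.64. Slc2a5, the fructose transporter of the brush border, differed by -4.03 ± 0.34 (adjusted p = 3.23e-07), Dak, the triokinase that phosphorylates glyceraldehyde, by -1.73 ± 0.39 (adjusted p = 0.00244) and Glyctk, a glycerate kinase, by -1.40 ± 0.30 (adjusted p = 0.0019). Sord, which makes fructose from sorbitol, was the one higher (0.50). None of the 6 passed for OH against C (0 unadjusted in either tissue).

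Among carriers of glucose and lactate, 3 of 7 were higher and 3 lower in C stomach, against 44.9% of all probes called. Slc2a2, the low-affinity glucose and fructose carrier, differed by -6.01 ± 0.43 and Slc5a1, the sodium-coupled glucose carrier of the brush border, by -2.26 ± 0.40. Slc16a7, a monocarboxylate carrier (3.09 ± 0.20), and Slc2a1, the glucose carrier of most cells (2.03 ± 0.20), were higher in stomach. Of 10 genes of the hypoxia response, 4 were higher and none lower: Car9 (3.04), Bnip3 (1.18), Ankrd37 (0.93) and P4ha1 (0.68). Their share called was below the 44.9% of all probes. None of these 17 genes passed for OH against C by limma in either tissue, with 2 and 1 of the carriers and 1 and 0 of the hypoxia genes at an unadjusted p under 0.05 in stomach and middle intestine.

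The named probes most like Gapdh A_64_P052510 over the 16 arrays, by Pearson's r among 15799 probes, were those of Btbd9 (0.93), Tm4sf5 (0.91), Cd82, Atp6v0c and Traf7 (all 0.90). Those most like Khk A_64_P122005 were Slc2a2, RatNP-3b, Slc37a4, Defa10 and Naaladl1 (0.98 to 0.99). Slc37a4 is the glucose 6-phosphate carrier of the endoplasmic reticulum, and RatNP-3b and Defa10 are defensins. The 16 arrays share their tissues, slides and reference, so these are descriptions of likeness only.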

How the data were processed

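RNA of stomach and middle intestine was measured on 16 two-colour arrays, 4 in each group, without dye swap. The authors deposited Feature Extraction output (version 10.7.3.1 per the labels, 10.10.1.1 per the file headers) with signal intensity of both dyes, background-subtracted, detrended and Lowess-normalised within each array, and the log10 ratio of the dyes (Cy5 over Cy3) in a separate table. Coordinates are those of rn4 per the file headers. Log2 ratios were computed from the deposited processed intensities. Control spots and outlier spots were left out, spots of a probe were averaged, and a probe was kept if some group had it well above the Cy5 background in each of its 4 arrays, with 3 or more values in every group, which left 21174 of 30367. Limma 3.58.1 (R 4.3.3) was fitted to all 4 groups without a block, with Benjamini-Hochberg adjustment over all kept probes and a threshold of 0.05. Single values were compared by two-sided exact permutation tests over arrays (scipy 1.17.1). The number of arrays limits the precision, and p-values measure only the spread between rats of these slides. On simulated data limma recovered 75% of log2 changes of 1 for OH against C in stomach and 62% in middle intestine. The text names all 9 members, Map2k3 and Mapk3 relative to Gapdh, the 4 largest tissue differences in C of each pathway list, and the 5 genes most like Gapdh and Khk. A few results of these lists are not reported here. Members and lists were chosen with earlier results of these data known. The alternatives were other normalisations, filters, tests, probes and reference genes, a replicate block and leaving out each array.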

Additional observations from a re-analysis of the deposited data

Results flagged for a closer look

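Of 60 groups of 4 arrays (15 probes in 4 groups), 3 held an array far from the other 3, by a gap past Dixon's 95% critical value, and chance gives about 1 in 20, or 3 of 60. For Aldoa, OH stomach replicate 3 (0.57) lay above the others (0.27 to 0.28), a gap of 0.961 of the range. For Eno1 A_64_P039081, C middle intestine replicate 4 (-0.63) lay below the others (-0.31 to -0.27), a gap of 0.886. For Khk A_64_P089787, C middle intestine replicate 3 (0.72) lay above the others (-0.02 to 0.10), a gap of 0.849.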

How the results depend on the processing

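No member probe passed for OH against C in either tissue, for their mean or for the difference between tissues under any alternative run with an adjusted p. At an unadjusted p the counts were 1 in stomach, 3 for the difference between tissues and 1 for the mean. Between tissues 9 to 12 of the 15 member probes passed in C and 7 to 9 in OH (without 1 array, 10 to 12 and 7 to 9), and with 1 probe per gene 7 and 5 of 9. A large share of all probes passed too. With 1 probe per gene, 4028 of 18276 were higher and 4192 lower in C, and 3501 and 3548 in OH. With Cy5 alone, 4394 of 21174 were higher and 4881 lower in C, and 4095 and 4092 in OH. With only the groups compared these were 4619 and 4779 in C, and 3542 and 3387 in OH. Gapdh in stomach (-0.30, exact permutation p = 0.0857) reached p = 0.0286 with quantile normalisation (-0.39), with median centring (-0.33), with probe A_64_P232432 (-0.27) and without OH stomach replicate 3, and without 1 array it ranged from -0.41 to -0.26. Map2k3 relative to Gapdh passed in stomach with no reference (-0.66) or the other PCR reference genes (-0.62), and in middle intestine with no reference (-0.60), the other 8 members (-0.51), the other PCR reference genes (-0.67) and without OH middle intestine replicate 3, ranging from -1.17 to -0.72 without 1 array. Mapk3 relative to Gapdh in stomach did not pass with Cy5 alone (0.32), nor without any one C stomach array. Without 1 array it ranged from 0.52 to 0.70. Same-numbered arrays of C and OH shared only a number (correlation of deviations in stomach -0.36 to 0.30, in middle intestine -0.40 to 0.51). For the 2 tissues of one treatment it was 0.06 to 0.25 in C and -0.12 to 0.32 in OH. With a replicate block the tissue counts stayed at 11 and 7. Of all 21174 probes, 4761 were then higher and 4698 lower in C, and 4026 and 4011 in OH. With that block Mapk3 in stomach (0.59) had exact permutation p = 0.125, the smallest that 4 pairs allow. Over all probes, OH against C gave 0 calls in stomach and 71 higher and 7 lower in middle intestine by limma. Without the filter on dim probes these were 538 higher and 101 lower, and 1248 and 130. By ANOVA with Tukey's test they were 339 and 370, and 616 and 320. Without C stomach replicate 2 the stomach gave 41 higher and 270 lower, and with Cy5 alone the middle intestine gave 38 and 218. With only the groups compared the middle intestine gave 1 and 0, without OH middle intestine replicate 2 it gave 13 and 1, and without C middle intestine replicate 3 it gave 12 and 0. For the mean of both tissues there were 111 higher and 34 lower, 1810 and 336 without the filter, 27 and 9 without C stomach replicate 1, 29 and 8 without OH stomach replicate 2, and 264 and 217 without C stomach replicate 2. The causes were not tested. The relation between the Gapdh and Eno1 distances, with alternatives chosen after seeing the data, had r between 0.74 and 0.86 in stomach and 0.73 and 0.87 in middle intestine over the normalisations, while in stomach it was -0.47 without the 2 farthest arrays.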
